A study of Homo sapiens with 6 samples.

Results

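The genes described are those that encode the subunits of the proteasome and the proteins that open, inhibit or assemble it. They were taken by symbol, as PSMA, PSMB, PSMC, PSMD, PSME, PSMF or PSMG followed by a number, without the immunoproteasome subunits PSMB8 and PSMB9, and came to 46 of the 33117 rows of the table. Expression was measured in WPMY-1 cells, an immortalised line of stromal cells from human normal prostate, grown in DMEM with serum, in total RNA of 3 shCAVIN1 libraries and 3 shCtrl libraries. The shCAVIN1 cells carried a lentiviral hairpin against CAVIN1, a coat protein of caveolae, and the shCtrl cells carried the pLKO1 control plasmid. Cells of both groups were transduced with virus made in HEK293T cells and selected with puromycin. The knockdown rests on a single hairpin sequence in a single cell line, and the labels speak of stable clones without saying how many. The study calls the 3 libraries of a group independent biological replicates and does not say whether they came from separate transductions, so the p-values given cover only variation among these 6 libraries.

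The hairpin target lies in the coding part of CAVIN1, exon 2 (GRCh38, chromosome 17, 42405221 to 42405241, minus strand). It is shown because it defines the treated group.
hairpin target: gtggaggttgaggaggttatt
CAVIN1, listed under its older symbol PTRF, had levels of 134, 139 and 150.2 FPKM in shCAVIN1, against 329.6, 347 and 330.3 FPKM in shCtrl, where FPKM counts fragments per kilobase of transcript, scaled to the mapped fragments of the library. The shCAVIN1 mean was 42.0% of the shCtrl mean (log2 fold change -1.25, SE 0.0586, limma adjusted p = 2.88e-05). With 3 libraries a group, a two-sided exact permutation cannot go below p = 0.1, the value that CAVIN1 reached.

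The proteasome is the protease of the cytosol and nucleus that degrades proteins tagged with ubiquitin. Its core particle is a barrel of stacked rings: outer rings of alpha subunits, which gate the entrance, and inner rings of beta subunits, of which PSMB5, PSMB6 and PSMB7 carry the active sites. A regulatory particle caps the barrel, with a ring of ATPases (PSMC) that unfold substrates and non-ATPase subunits (PSMD) that bind and remove ubiquitin. PSME proteins form alternative caps, PSMF1 is an inhibitor of the core, and PSMG proteins are chaperones that assemble the alpha ring. In cells exposed to interferon, PSMB8, PSMB9 and PSMB10 replace PSMB5, PSMB6 and PSMB7 to form the immunoproteasome, and the PSME1 and PSME2 cap is induced with them.

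Of the 46 genes, 44 had a mean of at least 0.5 FPKM over the 6 libraries and were tested. The other 2 are tissue-restricted core subunits: PSMA8, of the testis, was listed at 0 in every library, and PSMB11, of the thymus, was listed at 0 in 4 libraries and at 0.0249 FPKM in shCAVIN1 replicate 2 and 0.0335 FPKM in shCtrl replicate 2. Members were compared with limma on log2(FPKM + 0.5), and p-values were adjusted by Benjamini-Hochberg over all 13941 tested genes, with a call made under 0.05. Fold changes are log2 differences on that scale, percentages of the shCtrl level are ratios of mean FPKM, errors of means are SD with n = 3 per group, and errors of fold changes are SE from limma. All 11 stromal markers checked were at 1 FPKM or more in every library. Their sum lay between 914 and 929.7 FPKM in shCAVIN1 and between 1452 and 1609 FPKM in shCtrl, with TAGLN, FN1 and COL1A2 lower in every shCAVIN1 library, S100A4 and ACTA2 higher in every shCAVIN1 library, and VIM and PDGFRB overlapping. Of 8 epithelial markers, KRT8 and KRT18 were expressed, and the epithelial sum was 240.5 to 255 FPKM in shCAVIN1 and 397 to 431 FPKM in shCtrl. KRT18 made up most of it, at 211 to 226 FPKM in shCAVIN1 and 374 to 405 FPKM in shCtrl. KRT8 went the other way, at 28.4 to 28.9 FPKM in shCAVIN1 and 22.8 to 25.0 FPKM in shCtrl. EPCAM reached 0.567 FPKM at most, CDH1, KRT5, KRT14, KLK3 and TP63 were under 0.5 FPKM in every library, and so were all 4 endothelial markers. The part of these shifts in the results was not tested. In bulk RNA, fewer cells of a type and less RNA per cell cannot be told apart. Between 13.2% and 16.8% of all FPKM came from the small nuclear RNA RN7SK in each library but shCtrl replicate 2, where this gene has the value 0. That library was the highest control library for 37 of the 44 tested members (84.1%), against 71.7% of the 5208 tested genes with a mean at least that of the lowest member.

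Proteasome genes changed in both directions and by small amounts. Of 44 tested members, 18 rose, 7 fell and 19 did not pass the test. The share called, 56.8%, lay beside 55.5% of all tested genes (7734 of 13941), so the total was near the background. By direction, 40.9% of members rose, where 27.3% of all tested genes and 31.8% of those with a mean at least that of the lowest member did, and 15.9% of members fell, against 28.2% and 26.5%. The ranges of shCAVIN1 and shCtrl were separate for 29 members (65.9%), 19 of them higher and 10 lower in shCAVIN1. Such separation was found in 64.6% of all tested genes (31.3% higher and 33.3% lower) and in 67.3% of those with a mean at least that of the lowest member (35.5% higher and 31.8% lower). No member changed 2-fold (the log2 fold changes lay between -0.57 and 0.73), while 7.04% of all tested genes had a log2 fold change of at least 1 in size. The median log2 fold change was 0.036 over members and -0.020 over all tested genes, and the median size was 0.25 over members and 0.27 over all.

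Each class except the non-ATPase subunits, which had as many of each, held more members called higher than lower. Classes were taken by symbol, so the non-ATPase class holds PSMD5, PSMD9 and PSMD10, which act as assembly chaperones. Apart from them, the non-ATPase members called higher were PSMD4 and PSMD8, and those called lower were PSMD1, PSMD7, PSMD13 and PSMD14. In the alpha ring 4 of 7 rose and 1 fell (median log2 fold change 0.42), among beta subunits 3 of 8 rose and 1 fell (-0.0078), among ATPases 3 of 6 rose and 0 fell by limma (0.15; 1 was lower at an unadjusted p under 0.05), among non-ATPases 4 of 14 rose and 4 fell (-0.027), among activators and the inhibitor 2 of 5 rose and 1 fell (0.034), and among assembly chaperones 2 of 4 rose and 0 fell by limma (0.27; 0 were lower at an unadjusted p under 0.05). After rescaling the libraries to TPM, under which the median over all tested genes was 0.092 and not -0.020, limma called 6 members higher and 0 lower (15 higher and 1 lower at an unadjusted p under 0.05), beside 15.8% and 8.70% of all tested genes. The 6 were PSMA3, PSMB2, PSMB4, PSMB10, PSMD4 and PSME2, so the calls of all other members, each fall included, were lost under TPM. The beta and non-ATPase medians then turned positive, at 0.11 and 0.094. The beta median, close to 0, was also positive with median-of-ratios scaling (0.0038), with the protein-coding sum (0.0030) and without shCtrl replicate 2 (0.045). Quantile normalization called 19 members higher and 10 lower, beside 30.7% and 27.0% of all tested genes. Without shCtrl replicate 2, 21 members were called higher and 9 lower, beside 30.6% and 30.1% of all tested genes. With any single shCAVIN1 library or shCtrl replicate 3 left out, only 3 members were called lower. Between 22.6% and 24.02% of all tested genes were called lower in those fits, against 28.2% with all libraries.

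**Figure D1:**
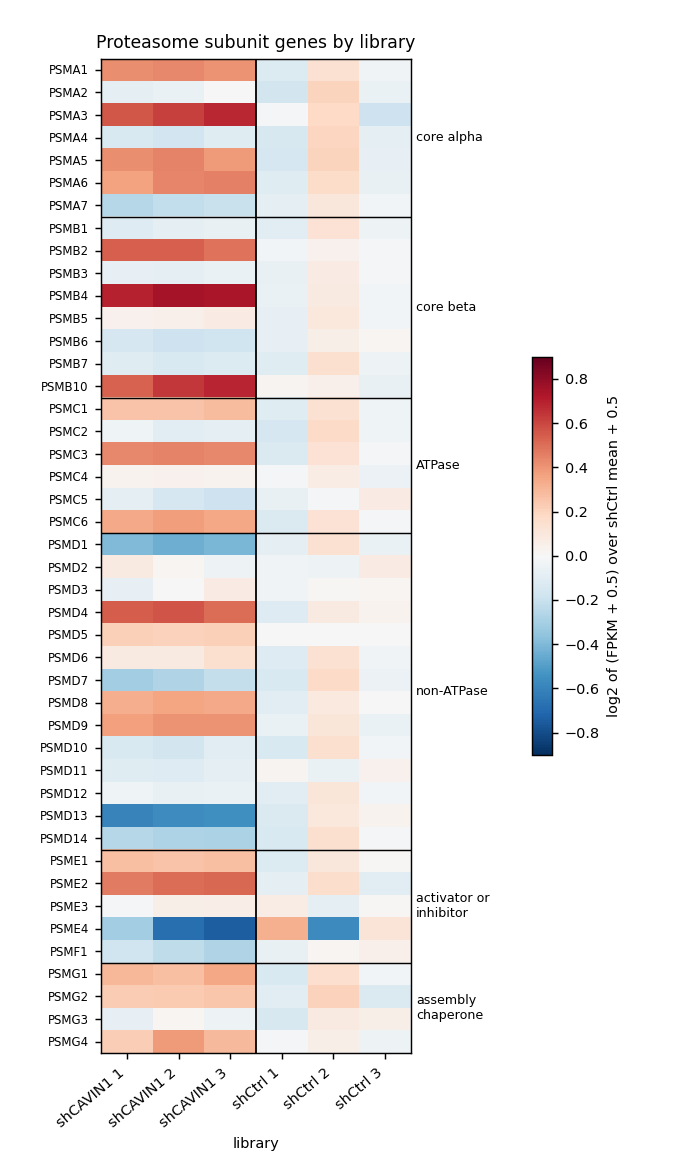
Log2 of each library's FPKM + 0.5 over the shCtrl mean + 0.5 for the 44 tested members (rows, grouped by class) in the 3 shCAVIN1 and 3 shCtrl libraries (columns); red is above and blue below the shCtrl mean. PSMB4 stands highest in the shCAVIN1 libraries and PSMD13 is among the lowest, and shCtrl replicate 2 is above the other controls for 37 members.

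Levels, which FPKM gives per length of transcript, spanned more than an order of magnitude within each ring of the core. The alpha subunit PSMA7 averaged 325 FPKM over the 6 libraries and PSMA5 averaged 24.5 FPKM, and among beta subunits PSMB4 averaged 336 FPKM and PSMB2 averaged 22.6 FPKM. ATPases lay closer together, between 34.3 FPKM for PSMC4 and 113 FPKM for PSMC3. Non-ATPase subunits ranged from 17.4 FPKM for PSMD5 to 154 FPKM for PSMD2, and PSME4 had the lowest level of all tested members, 14.2 FPKM. Summed over all 44 genes, members came to 3856, 3893 and 3912 FPKM in the shCAVIN1 libraries and to 3406, 3883 and 3567 FPKM in the shCtrl libraries. The ranges overlapped, since shCtrl replicate 2 lay above shCAVIN1 replicate 1. The ATPase sum did not overlap between groups, at 360.4 ± 1.141 FPKM in shCAVIN1 and 309.6 ± 23.6 FPKM in shCtrl, and the non-ATPase sum did, at 904 ± 0.348 FPKM in shCAVIN1 and 898 ± 50.4 FPKM in shCtrl. The beta sum was 1311 ± 12.7 FPKM in shCAVIN1 and 1178 ± 70.6 FPKM in shCtrl, and without PSMB4 it was 892 ± 6.28 FPKM in shCAVIN1 and 925 ± 57.8 FPKM in shCtrl.

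**Figure D2:**
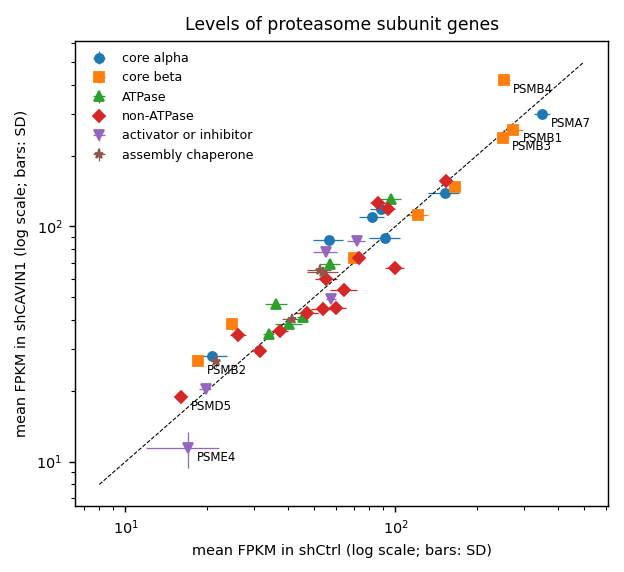
Mean FPKM of each tested member in shCAVIN1 (vertical, log scale) against shCtrl (horizontal, log scale), with SD over 3 libraries as bars and the dashed line at equal levels; marker shapes give the class. PSMB4, the most abundant member, lies above the line and PSMA7, the next most abundant, below it.

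In the fit given above and in each of 18 processing alternatives, the same 5 members were called higher in shCAVIN1: PSMA3, PSMB2, PSMB4, PSMB10 and PSME2. The promoters of 4 of these are printed here, as the 250 bases before the RefSeq start (GRCh38.p14), to show which short motifs they hold. The fifth, PSMB2, held none of the 3 motifs marked. Capitals mark GAAA repeated after any 2 bases (the core of the interferon-stimulated response element), TGACNNNGC (the core of the antioxidant response element, bound by NFE2L1 and NFE2L2) and CCAAT, each on either strand.
PSMB10 promoter, chr16:67936851-67937100, minus strand: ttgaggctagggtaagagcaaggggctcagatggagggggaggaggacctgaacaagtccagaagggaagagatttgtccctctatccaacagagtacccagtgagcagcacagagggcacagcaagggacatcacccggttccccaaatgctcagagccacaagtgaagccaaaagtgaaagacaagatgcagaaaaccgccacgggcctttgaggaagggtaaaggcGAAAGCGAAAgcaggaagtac
PSME2 promoter, chr14:24146611-24146860, minus strand: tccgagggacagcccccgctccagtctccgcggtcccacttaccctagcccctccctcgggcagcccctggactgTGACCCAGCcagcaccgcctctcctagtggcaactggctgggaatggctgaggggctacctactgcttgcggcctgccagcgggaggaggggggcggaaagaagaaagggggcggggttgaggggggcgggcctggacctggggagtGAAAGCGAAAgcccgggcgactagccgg
PSMB4 promoter, chr1:151399323-151399572, plus strand: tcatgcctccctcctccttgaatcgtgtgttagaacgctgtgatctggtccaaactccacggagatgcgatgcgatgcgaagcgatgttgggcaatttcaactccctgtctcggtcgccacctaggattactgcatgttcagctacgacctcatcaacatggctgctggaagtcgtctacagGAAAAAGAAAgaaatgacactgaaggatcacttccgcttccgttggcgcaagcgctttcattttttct
PSMA3 promoter, chr14:58244593-58244842, plus strand: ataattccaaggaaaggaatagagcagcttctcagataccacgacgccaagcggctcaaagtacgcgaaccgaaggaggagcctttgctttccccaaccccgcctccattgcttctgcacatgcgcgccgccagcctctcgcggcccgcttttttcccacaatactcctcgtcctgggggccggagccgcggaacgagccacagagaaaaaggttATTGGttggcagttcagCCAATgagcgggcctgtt
PSMB10 and PSME2 hold the same letters, GAAAGCGAAA, at -21 to -12 and at -28 to -19 from the start. PSMB4 holds GAAAAAGAAA at -68 to -59, PSME2 also holds TGACCCAGC at -175 to -167, and PSMA3 holds CCAAT at -18 to -14 and its reverse complement ATTGG at -35 to -31. All 4 RefSeq starts lie inside the gene as GENCODE 29 draws it, so that part of each window, and for PSME2 the whole of it, overlaps the GENCODE gene.

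The promoter table had entries for 38 of the 44 tested members, in 46 windows because 7 genes have several starts. The GAAA repeat occurred in 5 of these windows (10.9%) and in 3.02% of all 35116 windows of the same length. The 35116 windows were not limited to tested genes, while all member windows belong to tested genes. For each motif, no share over the windows of tested genes alone was taken, so the shares of windows have unlike backgrounds. The genes were PSMA4, PSMB4, PSMB10, PSME2 and PSMG4, of which 4 rose and PSMA4 did not pass the test. Of all 311 tested genes that hold the repeat, 33.4% rose and 30.2% fell. TGACNNNGC occurred in 12 member windows (26.1%) and in 10.9% of all. Its 12 genes included 5 that rose (PSMD5, PSMD9, PSME1, PSME2 and PSMG1) and 7 that did not pass, where 30.5% of all tested genes that hold it rose and 28.4% fell. The looser TGANNNNGC, which takes in TGACNNNGC, occurred in 52.2% of member windows and 35.2% of all. CCAAT occurred in 37.0% of member windows and 32.0% of all, GGGCGG in 65.2% and 42.6%, TTCNNNGAA in 10.9% and 6.57%, GCGC followed by any base and TGCGC in 10.9% and 5.07%, and CACGTG in 6.52% and 6.34%. Of all tested genes that hold CCAAT, 30.2% rose and 29.6% fell, and of those that hold GGGCGG, 30.8% rose and 29.03% fell. Of the member genes that hold CCAAT, 5 rose, 2 fell and 10 did not pass. Of the member genes that hold GGGCGG, 11 rose, 4 fell and 10 did not pass. None of the 5 that hold TTCNNNGAA passed, where 25.3% of all tested holders rose and 31.2% fell. The looser TGANNNNGC was held by 11 that rose, 1 that fell and 9 that did not pass. Of all tested genes that hold TGANNNNGC, 29.5% rose and 29.2% fell. The GCGC motif was held by 2 that rose and 2 that did not pass, where 31.7% of all tested holders rose and 25.3% fell. CACGTG was held by 1 that rose and 2 that did not pass, where 30.2% of all tested holders rose and 27.9% fell. A match is a stretch of letters and not a measured binding site, and the motifs were chosen with the fold changes known.

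In the alpha ring, PSMA3 changed most. It was measured at 84.0, 87.4 and 91.3 FPKM in shCAVIN1 and at 56.0, 64.3 and 49.9 FPKM in shCtrl. All shCAVIN1 libraries were above all shCtrl libraries, and the mean was 154.3% of the shCtrl level (log2 fold change 0.63, SE 0.0947, limma adjusted p = 0.00202). PSMA1 had 119, 119.5 and 117 FPKM in shCAVIN1 and 81.4, 97.4 and 86.7 FPKM in shCtrl (log2 0.42, SE 0.0701, limma adjusted p = 0.00302). For PSMA6 the values were 105, 111 and 113 FPKM in shCAVIN1 and 76.0, 91.8 and 78.1 FPKM in shCtrl (log2 0.42, SE 0.0799, limma adjusted p = 0.0051). These are structural subunits of the ring without protease activity, and none of the 3 overlapped between groups. PSMA5 also rose, to 134.3% of the shCtrl level. The most abundant alpha subunit, PSMA7, fell to 299 ± 5.38 FPKM in shCAVIN1, against 349.9 ± 22.6 FPKM in shCtrl (log2 -0.22, SE 0.0614, limma adjusted p = 0.022). That call was lost when any single shCAVIN1 library or shCtrl replicate 3 was left out, with log2 fold changes of -0.21, -0.23, -0.23 and -0.24. PSMA2 (97.0% of shCtrl) and PSMA4 (90.8%) did not pass the test, and their groups overlapped.

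Of the beta subunits, PSMB4 had the largest fold change among all tested members. PSMB4 is a structural subunit of the inner rings and takes part in their assembly. It lies on chromosome 1 at 151399534 to 151401944 (GENCODE 29, GRCh38, plus strand) and was at 409, 426 and 421 FPKM in shCAVIN1 and at 243, 267 and 249 FPKM in shCtrl. The groups were far apart, and the shCAVIN1 mean was 165.6% of the shCtrl mean (log2 fold change 0.73, SE 0.0559, limma adjusted p = 0.00015). PSMB3, another structural beta subunit, stood near the same level in shCtrl and not in shCAVIN1: PSMB4 was 176% ± 3.79 of PSMB3 in shCAVIN1 and 101% ± 0.674 of it in shCtrl. PSMB2, also structural, had 27.1, 27.0 and 26.2 FPKM in shCAVIN1 and 18.1, 18.96 and 18.4 FPKM in shCtrl (log2 0.52, SE 0.0382, limma adjusted p = 0.000128). PSMB1 (94.2% of shCtrl) and PSMB3 (95.1%) did not pass the test.

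Of the catalytic beta subunits, the inducible PSMB10 rose, PSMB6 fell, and PSMB5 and PSMB7 did not pass the test. PSMB10, the inducible subunit that replaces PSMB7, was at 36.0, 38.8 and 40.1 FPKM in shCAVIN1 and at 25.1, 25.5 and 23.6 FPKM in shCtrl. It lies on chromosome 16 at 67934502 to 67937087, with the GAAAGCGAAA match of its printed promoter just before the RefSeq start. Its groups did not overlap, and it rose to 154.7% of the shCtrl level (log2 fold change 0.62, SE 0.0562, limma adjusted p = 0.00027). PSMB7 itself, the trypsin-like subunit, was at 112.5, 110.1 and 111 FPKM in shCAVIN1 and at 112.7, 134 and 117 FPKM in shCtrl, a difference that did not pass the test (log2 -0.12, SE 0.0699, limma adjusted p = 0.192). PSMB7 was called lower with quantile normalization (log2 -0.15, adjusted p = 0.0105) and with the protein-coding sum (log2 -0.11, adjusted p = 0.0364). PSMB5, the chymotrypsin-like subunit and the main target of proteasome inhibitor drugs, was at 72.4, 72.6 and 74.2 FPKM in shCAVIN1 and at 66.7, 75.3 and 69.2 FPKM in shCtrl. Its groups overlapped and it did not pass (log2 0.055, limma adjusted p = 0.412), although it did without shCtrl replicate 2 (log2 0.10, adjusted p = 0.0301). PSMB6, the caspase-like subunit, had 149, 146 and 146 FPKM in shCAVIN1 and 158, 172 and 168 FPKM in shCtrl. It fell to 88.6% of the shCtrl level (log2 -0.17, SE 0.0483, limma adjusted p = 0.0232), a call lost when any single shCAVIN1 library (log2 between -0.18 and -0.17) or shCtrl replicate 3 (log2 -0.16) was left out.

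PSMB8 and PSMB9, the other inducible catalytic subunits, were left out of the members and rose as PSMB10 did. PSMB8 was at 41.1, 41.3 and 39.0 FPKM in shCAVIN1 and at 24.8, 29.5 and 26.1 FPKM in shCtrl (log2 fold change 0.59, limma adjusted p = 0.000825). PSMB9 was at 15.9, 17.5 and 16.8 FPKM in shCAVIN1 and at 6.53, 7.06 and 7.06 FPKM in shCtrl. Set against the constitutive subunit that each replaces, PSMB8 was 55.4% ± 2.47 of PSMB5 in shCAVIN1 and 38.0% ± 1.09 in shCtrl. PSMB9 was 11.4% ± 0.674 of PSMB6 in shCAVIN1 and 4.15% ± 0.0461 in shCtrl, and PSMB10 was 34.4% ± 2.13 of PSMB7 in shCAVIN1 and 20.5% ± 1.66 in shCtrl. The constitutive transcript was thus the more abundant of each pair in both groups. Together the 3 inducible genes made up 22.4% ± 0.565 of the summed FPKM of the 6 catalytic genes in shCAVIN1 and 14.1% ± 0.278 in shCtrl, with no overlap between libraries. These shares are descriptions of transcript levels and were given no test. Immunoproteasome genes are also active in leukocytes, and the summed level of 4 leukocyte markers was 9.43 to 9.84 FPKM in shCAVIN1 and 6.56 to 7.23 FPKM in shCtrl. CD68 made up most of the sum. PTPRC was at 0.128 to 0.148 FPKM in shCAVIN1 and at 0.0236 to 0.0655 FPKM in shCtrl, LYZ was at 0.218 to 0.375 FPKM in shCAVIN1 and at 0.254 to 0.574 FPKM in shCtrl, and CD3E was listed at 0 in all 6 libraries. Their part in the rise of the immunoproteasome genes was not tested.

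**Figure D3:**
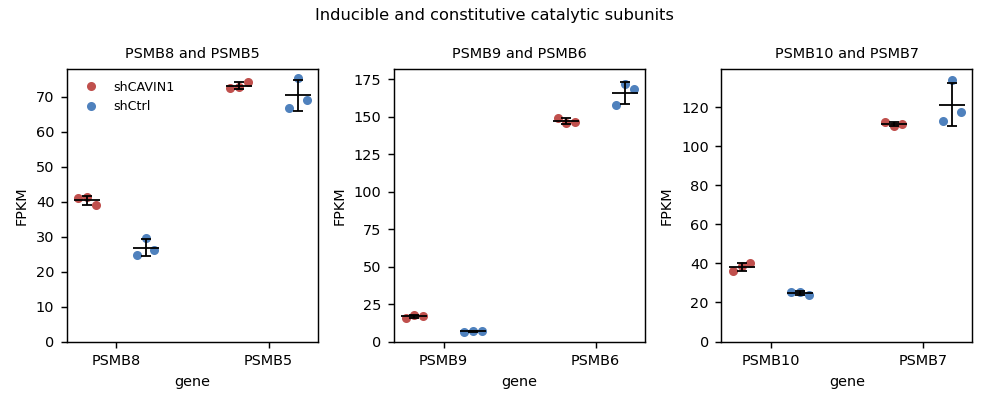
FPKM of each inducible catalytic subunit (left in each panel) and of the constitutive subunit it replaces (right), with 1 point per library, shCAVIN1 in red and shCtrl in blue, and mean with SD over 3 libraries in black. The inducible subunits PSMB8, PSMB9 and PSMB10 are higher in every shCAVIN1 library than in any shCtrl library, while PSMB5 overlaps between groups and PSMB6 and PSMB7 are lower in shCAVIN1 without overlap.

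Among activators, the subunits of the interferon-inducible cap rose and the others did not pass the test. PSME2, which pairs with PSME1 in that cap, was at 76.7, 78.2 and 79.4 FPKM in shCAVIN1 and at 52.2, 61.7 and 51.7 FPKM in shCtrl (141.5% of shCtrl, log2 fold change 0.50, SE 0.075, limma adjusted p = 0.00196). PSME1 was at 86.9, 86.0 and 86.8 FPKM in shCAVIN1 and at 65.9, 77.2 and 72.2 FPKM in shCtrl (log2 0.27, SE 0.0629, limma adjusted p = 0.0115). Both genes lie on chromosome 14, PSME1 at 24136158 to 24138967 and PSME2 at 24143362 to 24147570, and neither overlapped between groups. PSME2 was 90.2% ± 1.71 of PSME1 in shCAVIN1 and 76.9% ± 4.63 in shCtrl. PSME3, the subunit of a nuclear cap that acts without ubiquitin, was at 19.7, 20.5 and 20.6 FPKM in shCAVIN1 and at 20.7, 18.7 and 19.9 FPKM in shCtrl, which overlapped (limma adjusted p = 0.583).

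PSME4, a large single-chain activator, was the least precise member. It was at 13.6, 10.5 and 10.01 FPKM in shCAVIN1 and at 21.4, 11.3 and 18.5 FPKM in shCtrl, so that shCtrl replicate 2 lay within the shCAVIN1 range. Its log2 fold change of -0.53 (SE 0.244) did not pass (limma adjusted p = 0.11), and without shCtrl replicate 2 it did (log2 -0.79, adjusted p = 0.00896). The inhibitor PSMF1 was at 50.9, 49.1 and 47.8 FPKM in shCAVIN1 and at 55.2, 58.4 and 59.8 FPKM in shCtrl, and it fell to 85.3% of the shCtrl level (log2 -0.23, SE 0.0476, limma adjusted p = 0.00765).

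Of the ATPases that drive unfolding, PSMC3, PSMC6 and PSMC1 rose. PSMC3 was at 130.03, 131 and 130.3 FPKM in shCAVIN1 and at 87.8, 105 and 95.8 FPKM in shCtrl (log2 fold change 0.44, SE 0.0701, limma adjusted p = 0.00251). PSMC6 had 46.0, 47.3 and 46.4 FPKM in shCAVIN1 and 33.1, 39.8 and 35.9 FPKM in shCtrl (log2 0.36, SE 0.0694, limma adjusted p = 0.00551). PSMC1 had 68.4, 68.5 and 69.8 FPKM in shCAVIN1 and 53.1, 62.8 and 55.5 FPKM in shCtrl (log2 0.27, SE 0.0671, limma adjusted p = 0.0148). In all 3 the groups did not overlap, but the PSMC1 call was lost without shCAVIN1 replicate 3 (log2 0.26, adjusted p = 0.0535) and without shCtrl replicate 3 (0.25, 0.0547). All 3 calls were lost under TPM, with adjusted p of 0.0599 for PSMC3, 0.0872 for PSMC6 and 0.162 for PSMC1. They were also lost when the median change of neighbouring genes was subtracted, with log2 fold changes of 0.21 for PSMC3 (adjusted p = 0.0511), 0.16 for PSMC6 (0.104) and 0.025 for PSMC1 (0.783). PSMC1 also has 13 pseudogenes in GENCODE 29, more than any other member, and none of them has a row in the table, so its level is uncertain. The same limit holds for other called members: PSMA6 has 4 such pseudogenes, PSME2 has 2, and PSMA3, PSMD4, PSMD7 and PSMD8 have 1 each. PSMC2, PSMC4 and PSMC5 did not pass, at 94.8%, 102.6% and 90.4% of the shCtrl level, and PSMC5 did without shCtrl replicate 1 (log2 -0.18, adjusted p = 0.0348) and with quantile normalization (log2 -0.18, adjusted p = 0.0256).

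Of the members that fell, the non-ATPase subunits PSMD13 and PSMD1 fell furthest. PSMD13, a subunit of the lid that holds the deubiquitinase, lies on chromosome 11 at 236546 to 252984 and was at 65.5, 67.1 and 67.8 FPKM in shCAVIN1 and at 90.6, 106 and 101 FPKM in shCtrl. It fell to 67.2% of the shCtrl level without overlap (log2 fold change -0.57, SE 0.0649, limma adjusted p = 0.000672). PSMD1, a large scaffold of the base that docks ubiquitin receptors, fell to 45.0 ± 0.664 FPKM in shCAVIN1, against 60.3 ± 5.19 FPKM in shCtrl (log2 -0.41, limma adjusted p = 0.00248). PSMD7 and PSMD14, the paired lid subunits of which PSMD14 is the deubiquitinase that removes ubiquitin chains, fell to 83.1% and 82.6% of the shCtrl level. Both of these calls were lost when any single shCAVIN1 library or shCtrl replicate 3 was left out. The log2 fold changes then lay between -0.28 and -0.24 for PSMD7 and between -0.28 and -0.26 for PSMD14.

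PSMD4, the ubiquitin receptor of the base, rose. It lies on chromosome 1 at 151254703 to 151267479, within 5 Mb of PSMB4, and was at 127, 128 and 122 FPKM in shCAVIN1 and at 79.7, 91.3 and 88.2 FPKM in shCtrl (log2 fold change 0.54, SE 0.0604, limma adjusted p = 0.000614). PSMD9 was at 33.9, 34.8 and 34.7 FPKM in shCAVIN1 and at 25.1, 28.3 and 25.1 FPKM in shCtrl (log2 0.39, SE 0.0567, limma adjusted p = 0.00168). PSMD5 rose to 18.8 ± 0.0833 FPKM in shCAVIN1, against 16.1 ± 0.0101 FPKM in shCtrl (log2 0.21, limma adjusted p = 0.00244). PSMD9 and PSMD5 carry subunit names but act as chaperones that assemble the base and leave the finished particle, as does PSMD10, which did not pass (91.2% of shCtrl). PSMD8, a lid subunit, rose to 126.8% of the shCtrl level. PSMD2, PSMD3, PSMD6, PSMD11 and PSMD12 did not pass, at between 93.1% and 107.6% of shCtrl. Of these, PSMD6 (log2 0.18, adjusted p = 0.0148) and PSMD11 (log2 -0.13, adjusted p = 0.0103) passed without shCtrl replicate 2, and PSMD10 passed without shCtrl replicate 1 (log2 -0.19, adjusted p = 0.0478).

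Of the chaperones that build the alpha ring, PSMG4 and PSMG1 rose. PSMG4 was at 25.2, 28.2 and 26.6 FPKM in shCAVIN1 and at 21.4, 22.4 and 20.9 FPKM in shCtrl (log2 fold change 0.30, SE 0.0543, limma adjusted p = 0.00435). PSMG1 was at 64.9, 63.6 and 67.1 FPKM in shCAVIN1 and at 47.7, 58.3 and 51.7 FPKM in shCtrl (log2 0.31, SE 0.077, limma adjusted p = 0.0146), a call lost without shCAVIN1 replicate 3 (log2 0.29, adjusted p = 0.0555) and without shCtrl replicate 3 (0.30, 0.0521). PSMG2, the partner of PSMG1, did not overlap between groups and missed the threshold (118.1% of shCtrl, log2 0.25, limma adjusted p = 0.0608), which it passed without shCtrl replicate 2 (log2 0.35, adjusted p = 0.000406). PSMG3, the partner of PSMG4, did not pass (97.7% of shCtrl). PSMG2 and PSMG4 are among 11 tested members that share exon bases with another tested gene on the opposite strand, as are PSMD13, PSMC1, PSME1 and PSME2. PSMD13, at a mean of 83.1 FPKM, shared 316 bases with SIRT3 (6.47 FPKM, log2 fold change -0.63). PSMG4 shared 174 bases with TUBB2B (7.84 FPKM, log2 -1.20), and PSMG2 shared 92 with SPIRE1 (13.0 FPKM, log2 1.08). PSME1 shared 9 with EMC9 (20.3 FPKM, log2 0.52). Since the strand setting of the authors' counting is not given, fragments of such pairs cannot be told apart.

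**Figure D4:**
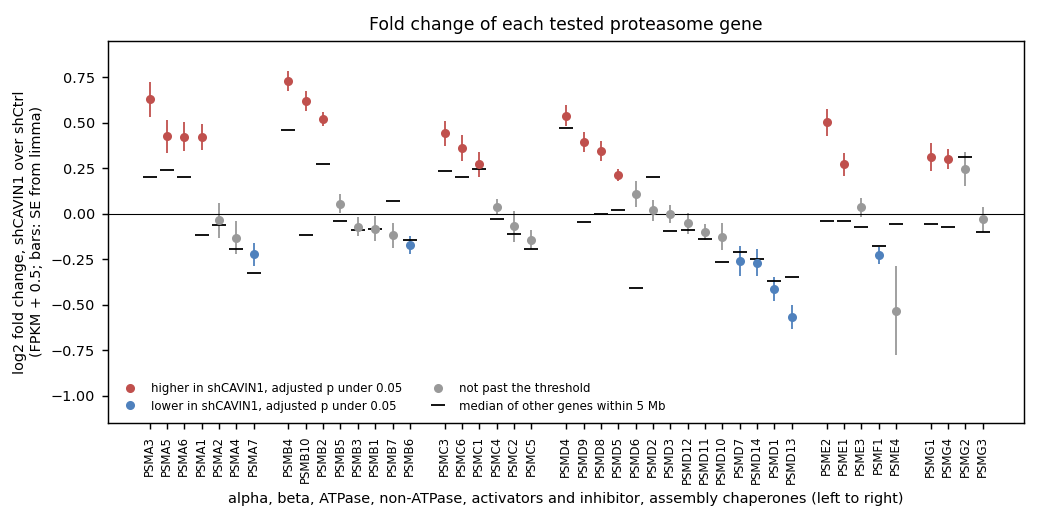
Log2 fold change of each tested member, shCAVIN1 over shCtrl (vertical axis, SE from limma as bars), by class and sorted within it; red and blue points passed an adjusted p of 0.05 and grey did not. Black dashes give the median log2 fold change of the other tested genes within 5 Mb, which is near the member's own value for PSMD4, PSMD1 and PSMC1 and apart from it for PSMB10 and PSME2.

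Members that fell lay among genes whose median change was also negative, while members that rose lay among genes of either sign. For each member, the median log2 fold change was taken over the other tested genes, members left out, that start within 5 Mb of it on either side (13 to 181 genes). All 7 members that fell lay where this regional median was negative, between -0.37 and -0.14. Of the 18 that rose, 10 lay where it was positive. Among other tested genes, 80.0% of 3673 that fell and 69.3% of 3610 that rose shared the sign of their regional median. Across the 44 members the fold change correlated with the regional median at Pearson r = 0.698 (Spearman rho 0.712), against 0.341 (rho 0.47) across 12790 other tested genes. The coefficient was 0.682 over 39 members with a window of 2 Mb and 0.679 over 44 with 10 Mb. The sets differ in level: other tested genes reach down to a mean of 0.5 FPKM, while the lowest member averaged 14.2 FPKM. No set of like level was taken for the correlation. These correlations are descriptions across genes that share the same 6 libraries, and members close to each other share neighbours. The 4 tested members on chromosome 1 (PSMA5, PSMB2, PSMB4 and PSMD4) all rose, where 52.2% of the other 1308 tested genes of the chromosome rose. On chromosome 14, 6 of 7 rose, against 44.5% of other genes. The 2 members on chromosome 20 (PSMA7 and PSMF1) fell, where 62.2% of the other genes fell, and on chromosome 17, 0 of 7 rose by limma (0 at an unadjusted p under 0.05) and 1 fell, where 26.5% of other genes rose and 26.5% fell. On some other chromosomes, members rose where the median of other genes was negative. On chromosome 11, PSMA1 and PSMC3 rose and PSMD13 fell, where 17.9% of other genes rose and 55.9% fell. Within 5 Mb, however, the regional median was -0.12 around PSMA1 and 0.23 around PSMC3. PSMG1 on chromosome 21 and PSMD9 on chromosome 12 rose, where the medians of other genes were -0.16 and -0.090.

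Around PSMB4 and PSMD4 the regional medians were 0.46 and 0.47, against their own log2 fold changes of 0.73 and 0.54. Around PSMD13 and PSMD1 they were -0.35 and -0.37, against -0.57 and -0.41. For the interferon-inducible members PSMB10, PSME1 and PSME2, and for PSMB8 and PSMB9 beside them, the regional medians were between -0.12 and 0.01. PSMB8 and PSMB9 shared 1 value, as did PSME1 and PSME2. Other members also rose at medians in this range: PSMA1 (-0.12), PSMD8 (-0.0041), PSMD9 (-0.047), PSMG1 (-0.059) and PSMG4 (-0.071). PSMD6 went against its surroundings, at a log2 fold change of 0.11 beside a regional median of -0.41 over 13 genes. When the regional median was taken off the shCAVIN1 values and the fit repeated, 13 members were called higher, 12 of them among the original 18, and 2 were called lower. PSMA5, PSMA6, PSMC1, PSMC3, PSMC6 and PSMD4 lost the call of higher, and PSMA7, PSMB6, PSMD1, PSMD7, PSMD14 and PSMF1 that of lower. Those called lower were PSMD13 from the original 7 and PSMD2, while 24.3% and 22.7% of all tested genes were called higher and lower. PSMA7 then had a log2 fold change of 0.10 and did not pass. This fit was chosen after the values had been seen and treats the regional median as free of error. No cause of the regional differences was tested.

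**Figure D5:**
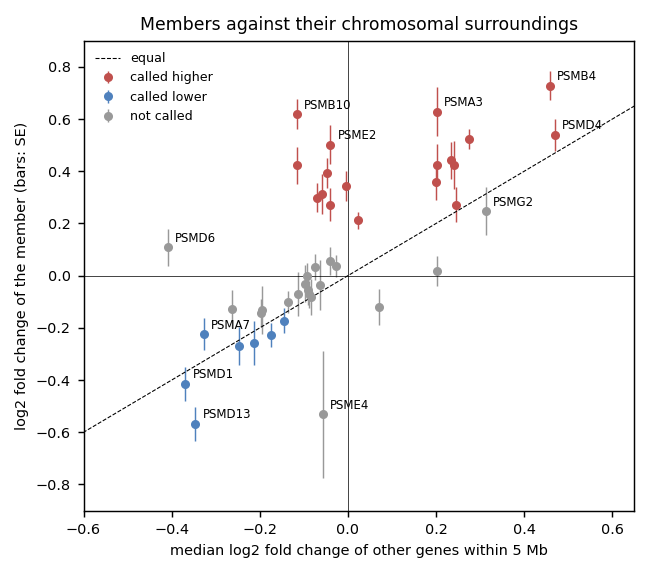
Log2 fold change of each tested member (vertical axis, SE as bars) against the median log2 fold change of the other tested genes within 5 Mb (horizontal axis); the dashed line marks equal values. PSMB4 and PSMD4 lie far to the right and high, PSMD13 and PSMD1 to the left and low, and PSMB10 and PSME2 are high at a regional median just below 0.

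Genes that work with the proteasome, taken as a list of 37 that also holds PSMB8 and PSMB9, moved both ways. All were tested, and 13 rose, 11 fell and 13 did not pass (35.1% higher and 29.7% lower, against 27.3% and 28.2% of all tested genes; median log2 fold change 0.085 against -0.020). Of the rises, SQSTM1, an autophagy receptor that binds ubiquitin, had the lowest adjusted p, at 145 ± 2.39 FPKM in shCAVIN1 and 63.3 ± 2.08 FPKM in shCtrl (log2 1.19, limma adjusted p = 1.24e-05). PSMB9 followed at 16.7 ± 0.796 FPKM in shCAVIN1 and 6.88 ± 0.303 FPKM in shCtrl (log2 1.22). UBA1, the main ubiquitin-activating enzyme, was at 72.2 ± 1.41 FPKM in shCAVIN1 and 43.7 ± 2.79 FPKM in shCtrl (log2 0.72, limma adjusted p = 0.000147), at a regional median of 0.58. Of the falls, PAAF1, a chaperone of the proteasomal ATPases, was at 6.27 ± 0.168 FPKM in shCAVIN1 and 13.3 ± 1.31 FPKM in shCtrl (log2 -1.02, limma adjusted p = 0.000121), at a regional median of -0.58. The deubiquitinase OTUB1 fell to 65.9% of the shCtrl level and the ubiquitin ligase UBE3A to 69.3%. The OTUB1 and UBE3A calls were lost under TPM (limma adjusted p = 0.0764 and 0.115).

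A few further genes of this list were singled out after their values were seen, for their roles. NFE2L1, the transcription factor that raises proteasome genes when proteasomes are inhibited, was at 27.8, 26.9 and 28.2 FPKM in shCAVIN1 and at 35.9, 35.2 and 35.9 FPKM in shCtrl (log2 fold change -0.36, SE 0.0371, limma adjusted p = 0.000421). NFE2L2, its relative in the antioxidant response, was at 17.3, 16.6 and 15.7 FPKM in shCAVIN1 and at 26.1, 25.2 and 24.4 FPKM in shCtrl (log2 -0.60, SE 0.0507, limma adjusted p = 0.000208). Both fell without overlap, in regions with medians of -0.07 and -0.36. Under TPM both calls were lost, at log2 -0.24 for NFE2L1 (limma adjusted p = 0.292) and -0.48 for NFE2L2 (0.0581). POMP, the maturation protein of the core, was at 52.8 ± 3.15 FPKM in shCAVIN1 and 39.2 ± 5.55 FPKM in shCtrl (log2 0.43, limma adjusted p = 0.0146). That call was lost without shCAVIN1 replicate 3 (log2 0.39, adjusted p = 0.0563), without shCtrl replicate 3 (0.42, 0.0519) and under TPM (0.55, 0.0769). Among regulatory-particle proteins on the list that lack a PSM symbol, the ubiquitin receptor ADRM1 fell to 77.1% of the shCtrl level (limma adjusted p = 0.00129). The small lid subunit SEM1 fell to 88.4% (limma adjusted p = 0.0278). The regional medians were -0.32 for ADRM1 and -0.18 for SEM1, and both calls were lost with the regional median subtracted (adjusted p = 0.421 and 0.973) and under TPM (0.338 and 0.841). The SEM1 call was also lost with the protein-coding sum (adjusted p = 0.0603), without shCAVIN1 replicates 1 or 2 (log2 -0.19 and -0.14) and without shCtrl replicate 3 (-0.15). The deubiquitinases UCHL5 (92.1% of the shCtrl level, limma adjusted p = 0.11) and USP14 (110.9%, limma adjusted p = 0.627), also on the list, did not pass.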

How the data were processed

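Total RNA of 6 libraries (3 shCAVIN1, 3 shCtrl) was sequenced after preparation with an Illumina stranded kit, per the labels' protocols. The authors deposited 1 table of FPKM values, with 1 value per gene symbol and library. The submitters' processing notes list the build GRCh38 and the tools bcl2fastq (2.17.1.14), CASAVA, TopHat and TopHat2, the last with 2.2.5 as its version. For the assignment of fragments to genes, the annotation, filters and strand, nothing is given in the sources used here. FPKM sums lay between 758837 and 1043843. Absolute depth is unknown, so no interval for counting error is given; the most common ratio of the lowest values (under 0.02 FPKM) put relative depths between 0.712 and 1.13 of shCtrl replicate 2.

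Genes with a mean of at least 0.5 FPKM were fitted with limma 3.58.1 in R 4.3.3 (group as the only term, trended variances), which was tested on simulated data. Positions come from GENCODE 29, matched to 22834 rows by symbol and 964 by an older one; 32 pseudogenes of 12 members have no row. Promoters come from RefSeq (GRCh38.p14). The members and lists were chosen with earlier results of these data known. Values are given per library for the catalytic subunits, the activators and up to 3 members per class with the lowest adjusted p among those called. Of the list of working partners, the 3 lowest adjusted p in each direction are named. Alternatives changed the pseudocount, filter, scaling, variance model, replicate block and libraries; rescaling to the protein-coding sum and subtracting regional medians were chosen after seeing the data. A further leukocyte marker of the list is not reported here.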

Additional observations from a re-analysis of the deposited data

How the results depend on the processing

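Under 18 alternatives, the log2 fold changes of the 44 members gave 792 values, of which 684 kept direction and side of the threshold, 54 lost the call, 19 gained it and 35 changed sign. Other pseudocounts (0.1 and 1), a filter of 2 FPKM and variances without a trend changed no member's call. Testing without a filter on low values lost PSMD7 (adjusted p = 0.0578). Rescaling to TPM changed most: limma called 2199 genes higher and 1213 lower, 6 and 0 of the members and 7 and 1 of the partner list, and higher calls were 64.4% of all calls, against 49.2%. Class medians became 0.54 (alpha), 0.11 (beta), 0.28 (ATPase), 0.094 (non-ATPase), 0.15 (activators and inhibitor) and 0.39 (chaperones). TPM divides each library by its own FPKM sum, of which RN7SK, at 0 in shCtrl replicate 2, holds between 13.2% and 16.8% elsewhere. The sums were 840887, 803134 and 817513 in shCAVIN1 and 899713, 758837 and 1043843 in shCtrl, so shCtrl replicate 3, where RN7SK held 14.4%, had the largest. The part of RN7SK in the TPM changes was not tested. TPM turned PSMA2 to 0.086, PSMB1 to 0.040, PSMB3 to 0.051, PSMB7 to 0.0028, PSMC2 to 0.051, PSMD3 to 0.12, PSMD11 to 0.021, PSMD12 to 0.067 and PSMG3 to 0.091, none of them called. Quantile normalization called PSMB7, PSMC5, PSMD10 and PSMD12 lower and PSMG2 higher, and lost PSMA7 (adjusted p = 0.0539). Median-of-ratios scaling turned PSMD3 to 0.011 and the protein-coding sum turned it to 0.0098.

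With the regional median subtracted, 2 members were called lower and 8 of the partner list higher, and class medians were 0.18 (alpha), 0.056 (beta), 0.059 (ATPase), 0.053 (non-ATPase) and 0.11 (activators and inhibitor). The sign of PSMD2 turned to -0.18, which was called (adjusted p = 0.0368). Signs also turned, without a call, for PSMA2 at 0.028, PSMA4 at 0.064, PSMA7 at 0.10, PSMB1 at 0.0018, PSMB3 at 0.017, PSMC2 at 0.043, PSMC5 at 0.054, PSMD3 at 0.092, PSMD10 at 0.14, PSMD11 at 0.037, PSMD12 at 0.037, PSMG2 at -0.066 and PSMG3 at 0.067.

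Leaving out each library in turn gave 16 to 21 members higher and 3 to 9 lower. Of all tested genes, 22.0% to 30.6% were then called higher and 22.6% to 30.1% lower. The median of the activators and inhibitor lay between -0.0039 and 0.068, and the beta median between -0.042 and 0.045. Signs changed for PSMA2 (-0.11 to 0.069), PSMC2 (-0.14 to 0.019), PSMD2 (-0.014 to 0.056), PSMD3 (-0.038 to 0.036), PSMD12 (-0.10 to 0.0028), PSME3 (-0.0039 to 0.068) and PSMG3 (-0.10 to 0.012), none of them called. With the replicate number as a block, 18 members were higher and 6 lower, beside 25.2% and 26.2% of all tested genes. PSMA7 (adjusted p = 0.0531) and PSMB6 (0.0724) lost the call and PSME4 gained it (0.0447). The numbers were not taken as pairs, since deviations of same-numbered libraries correlated at 0.0936, 0.0714 and -0.0282. The cause of these changes was not tested. Without read counts, the precision of the lowest members cannot be separated from depth.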
